A study of Mus musculus with 6 samples.

Results

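The iron and hepcidin genes were 10 mouse genes, Hamp, Hamp2, Tfrc, Tfr2, Hfe, Slc40a1, Fth1, Ftl1, Cp and Steap4, taken as the probes whose sequence accession, read without its version, is a RefSeq transcript of the gene. By that rule 8 of the 10 genes had 1 probe each, which made 8 of the 34967 mouse probes on the array. Hamp2 and Tfrc had none by this rule and were not analysed here. The study looked in liver for genes downstream of Src that might bear on tumour formation. RNA came from C57BL/6 mice aged 14 months and was amplified to biotin-labelled cRNA for 1-colour arrays, and the submitters left out 1 further array of each group for low signal. The controls were 3 wild-type mice (replicates 1, 2 and 4), compared with 3 mice (replicates 1, 3 and 4) carrying human c-Src, a cytoplasmic tyrosine kinase, behind a mouse metallothionein promoter. That promoter responds to metals and is not restricted to hepatocytes. Zinc could induce the transgene but was usually not needed, per the design text, and the labels do not say whether these 6 mice received it, what sex they were, or whether the sampled tissue held tumour.

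Hepcidin, the peptide hormone encoded by Hamp, is made by hepatocytes and sets the body's iron level by binding ferroportin, the iron exporter encoded by Slc40a1, on macrophages, hepatocytes and the gut, which leads to the exporter's degradation. The hepatocyte raises Hamp when plasma iron or liver iron is high, through BMP ligands and SMAD proteins with the help of the membrane proteins HFE, transferrin receptor 2 and hemojuvelin, and in inflammation through interleukin-6 and STAT3. Iron inside the cell is kept in ferritin, whose heavy and light chains are encoded by Fth1 and Ftl1. Ferritin and transferrin receptor 1 (Tfrc) are controlled largely by iron after transcription, so their transcript levels give only part of their regulation.

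The mouse carries a pair of neighbouring hepcidin genes, and the sequences upstream of their starts show how alike they are and where the inflammatory and BMP arms are known to act. Shown here are the 250 bases before each RefSeq start (GRCm38.p6, minus strand, 5′ to 3′), at chr7:30944030-30944279 for Hamp and chr7:30924182-30924431 for Hamp2, with capitals marking matches to GGCGCC, the core of the BMP response element, or to TTCNNNGAA, the paired half-sites that STAT proteins bind, both searched on both strands.
Hamp: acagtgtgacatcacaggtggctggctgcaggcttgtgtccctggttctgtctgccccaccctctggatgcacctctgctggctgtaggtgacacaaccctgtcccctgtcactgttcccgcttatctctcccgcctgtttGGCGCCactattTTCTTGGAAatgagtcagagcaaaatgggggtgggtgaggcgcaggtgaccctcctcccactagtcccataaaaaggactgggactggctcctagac
Hamp2: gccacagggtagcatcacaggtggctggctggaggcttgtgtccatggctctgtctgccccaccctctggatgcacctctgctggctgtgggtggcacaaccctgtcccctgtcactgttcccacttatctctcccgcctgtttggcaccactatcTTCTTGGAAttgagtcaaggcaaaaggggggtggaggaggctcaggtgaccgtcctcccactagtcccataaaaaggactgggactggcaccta
In a global alignment 227 of 253 columns were identical, or 89.7%. The STAT match began at position -97 in Hamp and at -94 in Hamp2, counted back from the start, and the BMP core, at -109, was present in the Hamp window alone of the pair. Of 32851 RefSeq promoter windows of the same length, 9.59% held GGCGCC and 7.02% held TTCNNNGAA. A match describes letters and is not evidence of binding. The transcripts of such close paralogs may both bind a probe, and the sequence of the Hamp probe was not used here, so its signal may include Hamp2.

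Src and the metallothionein genes were read beside the labels. The Src probe averaged 6.83 ± 0.33 in the controls and 8.62 ± 0.99 with the transgene (log2, SD, n = 3; limma adjusted p = 0.69). Mt2, a metallothionein gene, averaged 5.48 ± 0.53 and 10.36 ± 0.69 (limma adjusted p = 0.28), and Mt1 averaged 10.32 ± 1.02 and 14.03 ± 0.34 (limma adjusted p = 0.69). Neither is the transgene, so their values do not show which mice carried it. Whether the mouse Src probe reads the human transcript is unknown. Hepatocyte markers such as albumin were above background on all 6 arrays for all 7 tested members of that list, with 4 positive and 3 negative differences (median 0.0049). Median scaling gave 0 of 7 positive (median -0.61), and no scaling and cyclic loess gave 1 of 7. Median probe signal was 53.8 to 93.4 on wild-type and 94.8 to 117 on transgenic arrays, so the transgenic arrays were the brighter ones. On transgenic replicate 4, 1 of 4 Y-linked genes was above background, against 4 of 4 on each other array, and the mean of female-biased minus male-biased liver genes was 0.50 there, against -3.49 and -2.46 on the other transgenic and -4.77 to -4.68 on the wild-type arrays. Results that rest on that array are given without it as well. A probe is called above background where it exceeds the median of the array's control spots by 3 scaled median absolute deviations. Nothing in the labels says that the mice came from separate litters, and p-values measure the spread between these 6 samples.

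None of the 8 measured iron and hepcidin genes differed detectably between transgenic and wild-type livers. Differences in quantile-normalized log2 signal, transgenic minus wild-type, ran from -0.24 for Hfe to 0.28 for Cp, with 6 positive and 2 negative and a median of 0.06. The median over all probes was 0.01. By limma with Benjamini-Hochberg adjustment over all 34967 probes, 0 of the 8 passed an adjusted p of 0.05 (smallest 0.77), and 0.00286% of all probes did, which was 1 probe. None of the 8 had an unadjusted p under 0.05 (smallest 0.30), against 4.34% of all probes in the higher direction and 2.72% in the lower. The groups overlapped for 8 of 8, whereas they did not overlap for 15.9% of all probes. With 3 arrays against 3, an exact two-sided permutation test cannot give a p below 0.1, and for the 8 genes it gave 0.3 to 1.0. Under quantile normalization the 7 genes above background on all 6 arrays had 95% intervals from 0.562-fold at the lowest to 1.95-fold at the highest. Changes inside those bounds remain possible, and the bounds hold for that normalization only. Other scalings gave larger estimates, with -0.51 ± 0.26 (log2, SE) for Hamp under median scaling and 0.85 ± 0.22 for Cp with no scaling. The medians over all probes were -0.08 under median scaling and 0.48 with no scaling. Larger changes are not excluded.

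**Figure D1:**
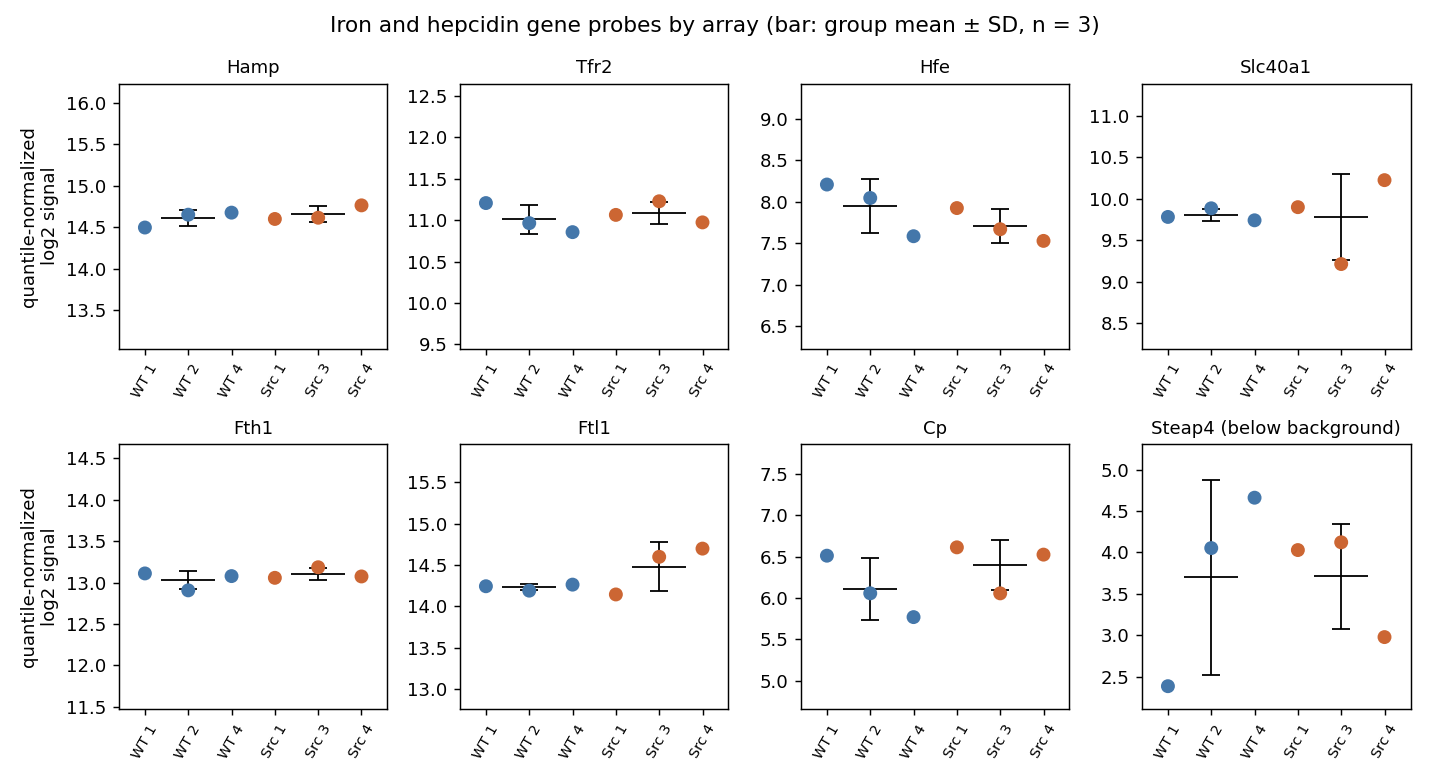
Quantile-normalized log2 signal (y axis, each panel spanning the same log2 range) of the 8 measured genes on each array (x axis; blue, wild-type; orange, Src-transgenic), with bars for the group mean ± SD, n = 3. The groups overlap in every panel, Hamp and Fth1 stay within a narrow band, and Slc40a1 is spread among the transgenic arrays from 9.21 to 10.22.

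Hamp was among the brightest probes of every array. Its deposited linear signal was 24143, 23671 and 25909 in the wild-type livers, and 24564, 23935 and 27914 in the transgenic ones, in the replicate order given above. The highest of the 6 values was 1.18 times the lowest, the narrowest range of the 8 genes, and transgenic replicate 4 was the highest. It ranked between 18 and 27 by signal on every array. After quantile normalization Hamp averaged 14.61 ± 0.10 in the controls and 14.66 ± 0.09 with the transgene (log2, SD, n = 3), a difference of 0.05 ± 0.18 (SE), or 1.04-fold with a 95% interval of 0.766 to 1.40 (limma adjusted p = 0.94). Without transgenic replicate 4 the difference was -0.00073. The difference was smaller than the SD within either group.

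The direction for Hamp depended on how arrays of unequal brightness were put on 1 scale. Median scaling, which divides each array by its median probe, gave -0.51 ± 0.26 (SE, limma adjusted p = 0.72), and there all 3 transgenic arrays lay below all 3 wild-type arrays, as did 7.59% of all probes. Signal with no scaling gave 0.05 ± 0.19 and cyclic loess -0.03 ± 0.17. The brightest probes moved less with the brightness of the array than others did. Over 116 probes with a mean signal above 10000, Hamp and Ftl1 among them, the median unscaled log2 difference was 0.16, whereas it was 0.53 over the 15356 probes with a signal between 100 and 1000. Under median scaling the same 116 probes had a median of -0.39. The files used here hold no saturation flag, and whether signals near the top were compressed was not tested.

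**Figure D2:**
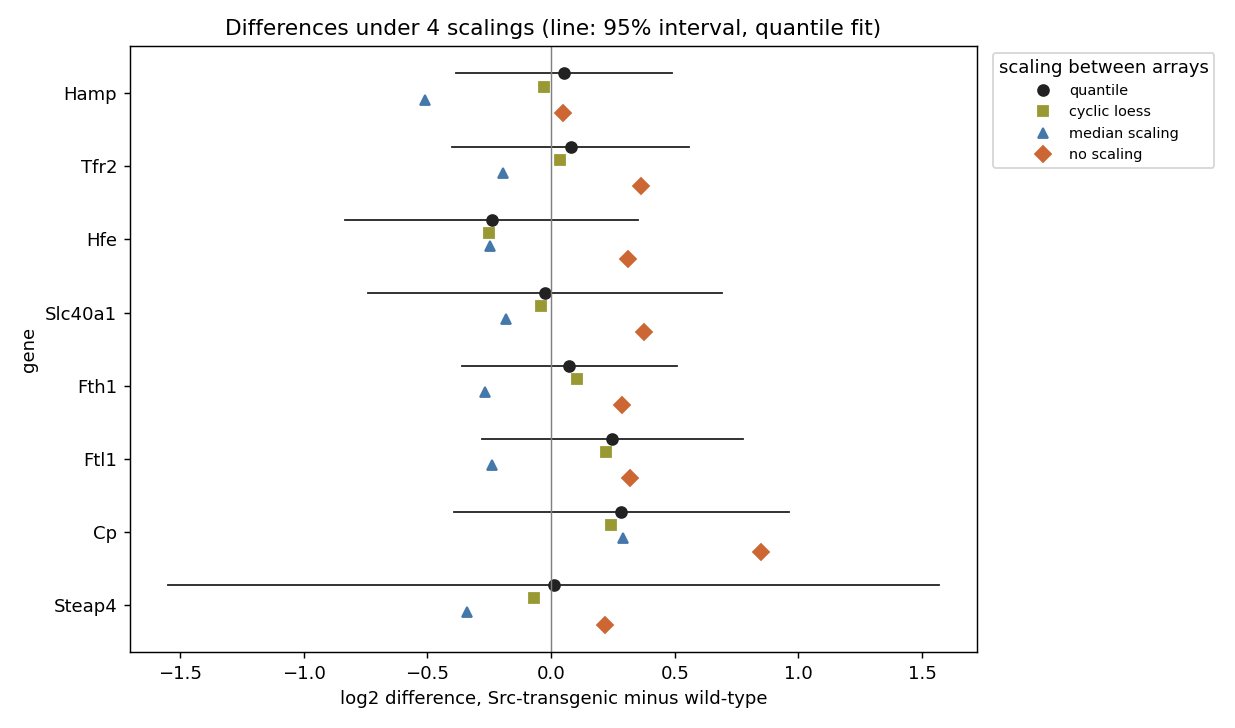
Log2 difference, transgenic minus wild-type (x axis), of the 8 genes (y axis) under quantile normalization with its 95% interval, cyclic loess, median scaling and no scaling between arrays. Cp lies above 0 under all 4 scalings, while Hamp moves from 0.05 to -0.51 and Hfe from -0.24 to 0.31.

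The iron sensors of the hepatocyte surface were measured by Tfr2 and Hfe. Tfr2 encodes transferrin receptor 2, which senses iron-loaded transferrin. Its signal was 1935, 1688 and 1975 in wild-type and 2261, 2496 and 2441 in transgenic livers. Every transgenic array was thus above every wild-type array in unscaled signal, but after quantile normalization the groups overlapped (10.86 to 11.21 against 10.97 to 11.23), with a log2 difference of 0.08 ± 0.20 (SE, limma adjusted p = 0.92). Median scaling turned it to -0.19 ± 0.28. Hfe encodes an MHC class I-like protein that binds transferrin receptors and is mutated in hereditary haemochromatosis. Its signal was 187, 225 and 205 in wild-type and 265, 254 and 245 in transgenic livers, again higher on every transgenic array before scaling. Quantile normalization gave 7.95 ± 0.32 and 7.71 ± 0.20 (log2, SD, n = 3) and a negative difference, -0.24 ± 0.24 (SE, limma adjusted p = 0.79), whereas unscaled signal gave 0.31 ± 0.19. It was -0.11 without wild-type replicate 1 and -0.42 without wild-type replicate 4. Before scaling 4 of the 8 genes (Tfr2, Hfe, Fth1 and Cp) were higher on all transgenic arrays, and so were 36.9% of all probes.

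Slc40a1, the ferroportin gene, had the widest spread among transgenic livers of the 7 genes above background. Quantile-normalized log2 values were 9.78, 9.88 and 9.74 for the controls, and 9.90, 9.21 and 10.22 for transgenic replicates 1, 3 and 4. The SD was 0.07 in wild-type and 0.52 in transgenic livers (n = 3 each), with transgenic replicate 3 below and replicate 4 above every other array. The group means were alike, with a log2 difference of -0.02 ± 0.30 (SE, limma adjusted p = 0.99) and a 95% interval of 0.599- to 1.62-fold. It was -0.25 without transgenic replicate 4 and 0.26 without transgenic replicate 3, so each of these arrays set the direction. Position on the array was checked by how far neighbours up to 4 rows or columns away deviated at their median, called a patch where that exceeds 0.5 (log2). For Slc40a1 it was -0.30 on replicate 3 and 0.43 on replicate 4, and subtracting it, here called local correction, gave -0.07 ± 0.19.

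Ferroportin is abundant in the resident macrophages of the liver, the Kupffer cells, which recycle iron from red cells. In bulk liver, more cells of a type and more RNA per cell cannot be told apart. Macrophage markers and Slc40a1 were both highest on transgenic replicate 4, where the spots near Slc40a1 deviated by 0.43. On transgenic replicate 1 Slc40a1 read 9.90 against a wild-type mean of 9.80, while the marker mean lay below its wild-type mean. Of 14 listed genes 10 were tested and 9 were above background on all arrays, and their mean lay 0.74 above the wild-type mean on that array, against -0.19 and -0.27 on transgenic replicates 1 and 3 and -0.07 to 0.08 on the wild-type arrays. Their summed signal, with no scaling between arrays, was 6601 to 7665 in wild-type livers. It was 7545 for transgenic replicate 1, 7529 for replicate 3 and 15835 for replicate 4. The part of these markers in the Slc40a1 signal was not tested. No marker of the list passed over all probes.

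**Figure D3:**
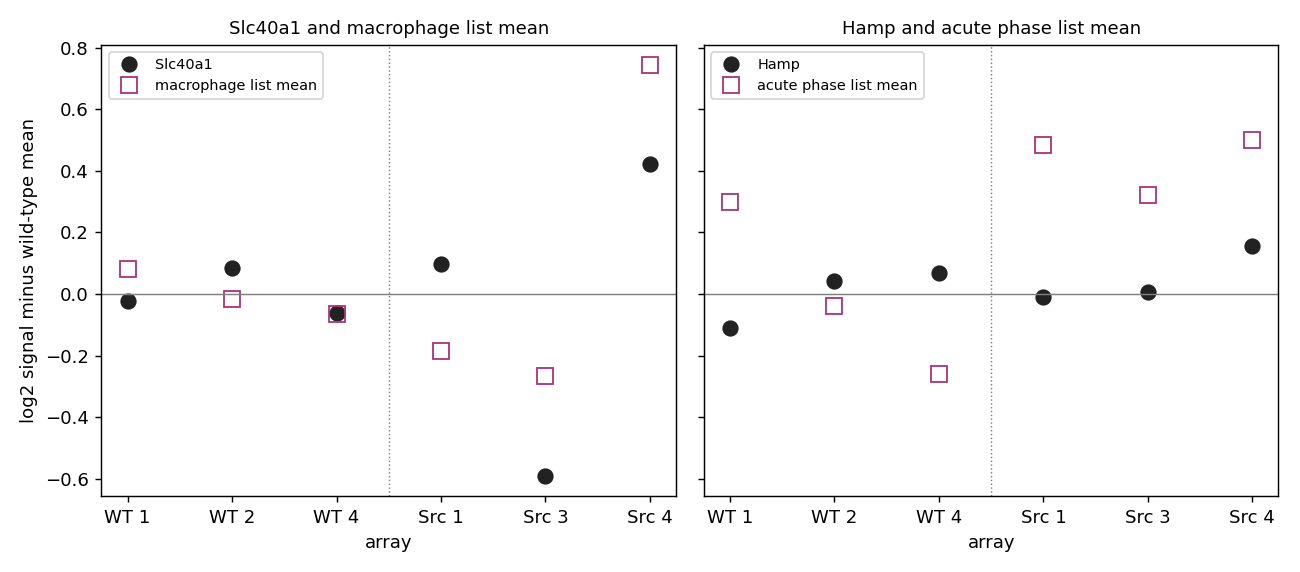
Log2 signal minus the wild-type mean (y axis) on each array (x axis), for Slc40a1 with the mean of 10 macrophage genes (left) and for Hamp with the mean of 14 acute phase genes (right). Slc40a1 and the macrophage mean are both highest on transgenic replicate 4, and Hamp lies near 0 on arrays where the acute phase mean is 0.32 to 0.50.

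Cp and Steap4 encode enzymes that change the charge of iron. Cp encodes ceruloplasmin, the copper ferroxidase that hepatocytes secrete and that helps load exported iron onto transferrin. Its signal was 55.4, 58.1 and 57.1 in wild-type and 105, 83.3 and 122 in transgenic livers. The probe was dim, but above background on 6 of 6 arrays. Unscaled signal separated the groups at 0.85 ± 0.22 (log2, SE), which did not pass over all probes (limma adjusted p = 0.20). The median unscaled difference was 0.46 over the 17092 probes with a mean signal of at most 100, Cp among them. With no scaling 36.9% of all probes were higher on every transgenic array. After quantile normalization the groups overlapped for Cp, at 6.51, 6.06 and 5.77 against 6.61, 6.06 and 6.52. The log2 difference was then 0.28 ± 0.28 (SE, limma adjusted p = 0.79), the highest of the 8 genes, with a 95% interval of 0.763- to 1.95-fold. It was 0.11 without wild-type replicate 4, 0.48 without wild-type replicate 1 and 0.16 after local correction. Cp was the only one of the 8 genes with a positive difference under all settings tried.

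Steap4 encodes a metalloreductase of the STEAP family, known chiefly from adipose tissue and from inflammation in mice. Its probe was above background on 0 of 6 arrays, with signals of 1.78, 15.5 and 25.5 in wild-type and 16.8, 20.4 and 8.55 in transgenic livers against background thresholds of 33.0 to 50.6. No fold is given for it. Its log2 difference of 0.01 ± 0.64 (SE) has the widest error of the 8 genes.

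Both ferritin chains gave bright signals, and Ftl1 varied more than Fth1 among transgenic livers. Fth1, which encodes the heavy chain with ferroxidase activity, had signals of 8068, 6715 and 8671 in wild-type and 8869, 8880 and 10868 in transgenic livers. It averaged 13.03 ± 0.11 and 13.11 ± 0.07 after quantile normalization (log2, SD, n = 3), a difference of 0.07 ± 0.18 (SE, limma adjusted p = 0.91) with a 95% interval of 0.779- to 1.42-fold. Hamp and Fth1 had the narrowest intervals of the 8 genes. Ftl1, which encodes the light chain that helps form the iron core, had signals of 19414, 16737 and 19089 in wild-type and 18588, 23815 and 27282 in transgenic livers. With no scaling, transgenic replicates 3 and 4 lay above the wild-type arrays and replicate 1 inside their range. After quantile normalization Ftl1 read 14.15 on transgenic replicate 1, below the wild-type arrays at 14.19 to 14.26. Its log2 difference was 0.25 ± 0.22 (SE, limma adjusted p = 0.77), and 0.14 without transgenic replicate 4. On that array Ftl1 lay in a bright patch where neighbouring spots deviated by 0.72, and local correction turned the difference to -0.17 ± 0.18. Median scaling gave -0.24. Ferritin genes have many processed pseudogenes in the mouse, and the probes may not separate their transcripts.

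Across the 6 arrays the genes did not move as 1 group. Pearson correlations of quantile-normalized signal, over arrays that share group and brightness, ran from -0.80 between Hamp and Hfe to 0.58 between Tfr2 and Fth1, and from 6 points they are a description only. The 5 named genes whose values followed the Hamp probe most closely, among 9615 above background on all arrays, were Sele (r = 0.94), B4galt7 (0.94), Zc3h4 (0.93), Mab21l1 (0.92) and Sva (0.92). Hamp itself varied by so little that these values rest on differences within the spread of replicates.

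The genes that control hepcidin in the hepatocyte gave both directions and no call. Of 24 listed genes 21 were tested, 0 passed over all probes, and the median log2 difference was -0.13, with 7 positive and 14 negative, against a median of -0.02 over 13971 named genes, each taken as its brightest probe. With no scaling between arrays the list median was 0.43, as it was over all named genes. It was -0.03 without transgenic replicate 4 and -0.28 without transgenic replicate 1. An unadjusted p under 0.05 was reached by 2 genes in the higher and 1 in the lower direction, against 3.87% and 2.51% of all named genes. The higher ones were Fgl1, a secreted liver protein known in mice to bind BMP6 and restrain hepcidin, and Il6ra, the receptor subunit for interleukin-6. Fgl1 signal was 4365, 5635 and 4675 in wild-type and 13271, 8761 and 21439 in transgenic livers, with a log2 difference of 1.32 ± 0.31 (SE, limma adjusted p = 0.69). Il6ra signal was 117, 143 and 202 against 306, 315 and 435, with 0.66 ± 0.20 (adjusted p = 0.69). For both, named for their small p, every transgenic array was above every wild-type array, also after quantile normalization. There the groups did not overlap for 15.9% of all probes in either direction.

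On the BMP side, Acvr1, a type I receptor, had a log2 difference of -0.60 ± 0.23 (SE, limma adjusted p = 0.69). After quantile normalization all transgenic arrays lay below all wild-type arrays, and there the groups did not overlap for 15.9% of all probes in either direction. Deposited Acvr1 signal did overlap, at 378, 419 and 384 in wild-type and 336, 333 and 432 in transgenic livers. With no scaling the Acvr1 difference was -0.11. Atoh8, a transcription factor that responds to BMP signals, had -1.44 ± 0.60. It read 8.12, 6.95 and 7.62 in wild-type livers and 6.45, 4.91 and 7.01 in transgenic livers, was below background on transgenic replicate 3, and had -0.84 without that array. The following 5 genes were chosen for their role with values in view. Bmp6, the ligand that liver endothelial cells release in iron loading, had -0.06 ± 0.38. Hjv, the hemojuvelin co-receptor, had -0.64 ± 0.30, and the BMP target Id1 had 0.62 ± 0.29, so Id1 and Atoh8 gave opposite signs. Hjv lay in a patch on transgenic replicate 3, and local correction gave -1.10 for Hjv and 0.35 for Id1. Without transgenic replicate 4 Id1 had 0.40. Tmprss6, the protease that cuts hemojuvelin and lowers hepcidin, had -0.35 ± 0.22, and -0.21 without wild-type replicate 1. Stat3 had 0.51 ± 0.22 (SE) by its brighter probe and 0.17 ± 0.27 by the other. None of these passed, with limma adjusted p of 0.69 or above.

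Acute phase genes are raised by hepatocytes in inflammation, in part through the interleukin-6 and STAT3 arm that also acts on Hamp. Their differences were positive for 14 of 14 tested members of 15, with a median of 0.31 (log2), where 47.7% of all named genes were positive. None of the 14 passed over all probes, and 3 had positive differences at an unadjusted p under 0.05, against 3.87% of all named genes, namely Orm2 at 1.22 ± 0.41, Itih4 at 0.62 ± 0.21 and Saa2 at 0.91 ± 0.37 (SE). Saa1 had 0.94 ± 0.45, and 0.52 without wild-type replicate 4. The list mean stood 0.48, 0.32 and 0.50 above the wild-type mean on transgenic replicates 1, 3 and 4, while wild-type arrays ran from -0.26 to 0.30. Hamp on the same transgenic arrays read 14.60, 14.61 and 14.76, against a wild-type mean of 14.61. Median scaling left 8 of 14 acute phase genes positive with a median of 0.07, and local correction 11 of 14 with 0.32. Local correction gave 0.81 for Orm2 and 0.60 for Saa2, and without wild-type replicate 4 Saa2 had 0.58.

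**Figure D4:**
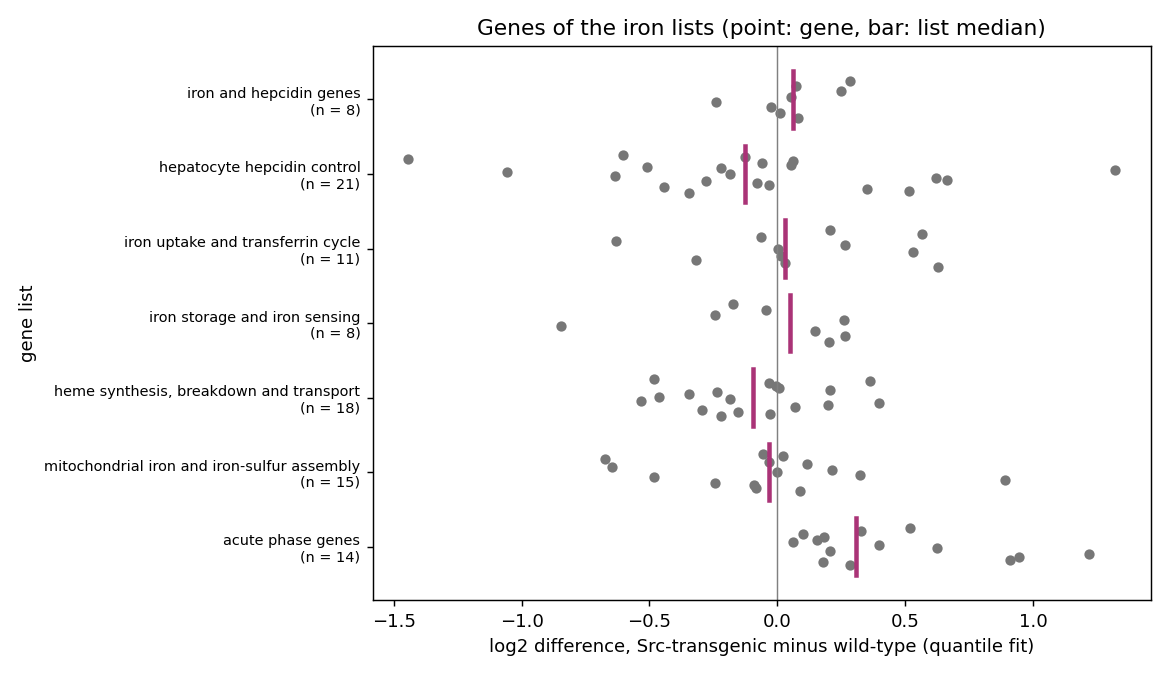
Log2 difference, transgenic minus wild-type, under quantile normalization (x axis) for each tested gene (points) of the 7 lists (y axis), with the list median as a bar. The medians lie within 0.13 of 0 except for the acute phase genes, whose 14 points are all above 0.

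Genes of iron uptake gave no call. Of 14 listed genes 11 were tested, with 0 called, 8 positive and a median log2 difference of 0.03. With no scaling the list median was 0.59, against 0.43 over all named genes. Trf, which encodes transferrin, the plasma iron carrier made by hepatocytes, had signals of 18851, 18504 and 17646 in wild-type and 22663, 29973 and 33855 in transgenic livers. All transgenic arrays were higher, also after quantile normalization, where the groups did not overlap for 15.9% of all probes in either direction. The log2 difference of Trf was 0.63 ± 0.24 (SE, limma adjusted p = 0.69, unadjusted p = 0.039). It was 0.08 under median scaling and 0.05 after local correction, and Trf lay in a patch on transgenic replicate 3. Heph, which encodes the membrane ferroxidase hephaestin, had 0.57 ± 0.27 and was above background on 1 wild-type and 3 transgenic arrays, and without transgenic replicate 3 it had 0.31. The other Heph probe gave 0.26 ± 0.26. Mcoln1, a lysosomal cation channel gene, had -0.63 ± 0.49, which was -0.28 after local correction and -0.11 without transgenic replicate 3. Slc39a14, a transporter of zinc and non-transferrin iron, had 0.53 ± 0.47 (SE), and 0.23 and 1.07 as the lowest and highest values when single arrays were left out.

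Other genes of iron storage and sensing had a median log2 difference of 0.05 over 8 tested of 10 listed, with 4 positive, 4 negative and 0 at an unadjusted p under 0.05. With no scaling the median was 0.36 (7 of 8 positive), against 0.43 over all named genes. The list median was -0.19 with median scaling, -0.18 with local correction and -0.11 without transgenic replicate 4. Those with the smallest p were Epas1, which encodes HIF-2 alpha, at 0.26 ± 0.22, the iron chaperone gene Pcbp1 at 0.26 ± 0.23, the iron-sulfur protein gene Cisd2 at -0.25 ± 0.23 and the mitochondrial ferritin gene Ftmt at -0.85 ± 0.85 (SE). Pcbp1 had 0.11 and Epas1 0.11 as their lowest values when single arrays were left out, and local correction gave 0.07 for Pcbp1 and -0.85 for Cisd2, whose other probe gave -0.39 ± 0.33. Cisd2 had -0.12 without wild-type replicate 1 and -0.39 without transgenic replicate 1. Ftmt was above background on 1 wild-type array and on 0 transgenic arrays.

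Heme genes gave no call. Of 19 listed genes 18 were tested, 6 were positive and 12 negative, the median log2 difference was -0.09, and 0 had an unadjusted p under 0.05. With no scaling 17 of 18 were positive with a median of 0.28, against a median of 0.43 over all named genes. Alad, the second enzyme of heme synthesis, had 0.36 ± 0.18, and Hp, which encodes the hemoglobin-binding protein haptoglobin, had 0.40 ± 0.22 (SE). Where groups did not overlap for 15.9% of all probes in either direction, both genes had all transgenic arrays above the wild-type ones. Median scaling gave 0.07 for each, and local correction gave 0.12 for Alad, which lay in a patch on transgenic replicate 1, and 0.19 for Hp. The heme oxygenase gene Hmox2 had -0.53 ± 0.27 (SE). It lay in a patch on wild-type replicate 4, and local correction gave -0.0013.

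Mitochondrial iron and iron-sulfur assembly genes had a median of -0.03 over 15 tested of 18 listed, with 6 positive and 9 negative. With no scaling 12 of 15 were positive (median 0.33), and with median scaling 3 of 15 (median -0.23). Over all named genes these medians were 0.43 and -0.12. Hscb, a cochaperone of cluster assembly, had -0.65 ± 0.24 (SE), with an unadjusted p of 0.037, and the scaffold gene Iscu had -0.48 ± 0.22. Lyrm4, a partner of the cysteine desulfurase, went the other way at 0.89 ± 0.36, with an unadjusted p of 0.047. For these 3 genes, named for their small p, the groups did not overlap after quantile normalization, as for 15.9% of all probes in either direction. Their limma adjusted p was 0.69. With no scaling the groups overlapped for Hscb (-0.11) and Iscu (-0.12). Lyrm4 then had 1.44, with every transgenic array above every wild-type array. Local correction gave -0.42 for Hscb and 0.55 for Lyrm4. Iscu had -0.32 without transgenic replicate 4. Fdxr, the ferredoxin reductase gene, was above background on 1 wild-type array and on 0 transgenic arrays, so no fold is given, and its log2 difference of -0.67 ± 0.38 was -0.34 without transgenic replicate 4.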

How the data were processed

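Each array file holds, per the file headers, a deposited intensity for every spot with background already subtracted, and the same intensity divided by a constant for that array, which the authors also gave as their value table. The sources used here do not name the scanner, image software or background method. The 620 control spots were dropped. Within each array the 1st percentile of positive signals served as a floor, and log2 values were then quantile normalized. Unversioned accessions and RefSeq's GRCm38.p6 gene table named 14763 of 34967 probes. A probe above background exceeded the median of 570 control spots by 3 scaled median absolute deviations. The group test was limma's (version 3.58.1, R 4.3.3, two-sided, Benjamini-Hochberg over all probes, moderated SE and 95% intervals), with steps tested on simulated data. A patch is a place where spots within 4 rows and columns deviated by a median over 0.5 (log2), and local correction subtracts that median. Promoter windows came from RefSeq and were aligned with Biopython 1.88. The text names all members, the genes of each iron list with the smallest p (up to 4), and genes chosen for a role, as said there; 1 gene that the rule names is not reported here. Members and lists were chosen with earlier results of these data known. No scaling and cyclic loess were added after seeing the data.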

Additional observations from a re-analysis of the deposited data

How the results depend on the processing

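Every iron and hepcidin gene missed an adjusted p of 0.05 under each of the 17 alternatives in which it was tested, and 0 members of the 6 iron lists passed under any. Signs did change. Median scaling gave -0.51 for Hamp, -0.19 for Tfr2, -0.27 for Fth1, -0.24 for Ftl1 and -0.34 for Steap4. Local correction of patches gave -0.0051 for Hamp, -0.035 for Tfr2 and -0.17 for Ftl1. Cyclic loess gave -0.028 for Hamp and -0.071 for Steap4, and adding 16 before log2 gave -0.050 for Steap4. With no scaling, values were 0.31 for Hfe, 0.38 for Slc40a1, 0.026 for Hmox2, 0.19 for Cisd2, 0.51 for Bmp6 and 0.056 for Tmprss6. The unscaled median over all named genes was 0.43. Leaving out single arrays gave -0.0043 to 0.086 for Hamp, -0.25 to 0.26 for Slc40a1, -0.65 to 0.49 for Steap4, -1.56 to 0.14 for Ftmt and -0.36 to 0.24 for Bmp6. The cause was not tested.

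Replicate numbers 1 and 4 occur in both groups, and same-numbered arrays deviated together only weakly (r = 0.059 and 0.056 over probes). Such values cannot exclude that same-numbered arrays shared a litter or a batch, and the labels name no pairing. A replicate block over those 4 arrays gave -0.013 for Tfr2, 0.30 for Slc40a1, -0.029 for Fth1, -0.020 for Steap4, 0.35 for Ftmt, 0.038 for Mcoln1 and 0.31 for Bmp6, and 0.096 for Hamp.

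Of all probes 1 was called, an angiogenin probe. The count was 0 with the filter on dim probes, with the replicate block and with 1 feature per gene, and 0 to 2 without single arrays. An unadjusted p under 0.05 was reached by 1517 probes in the higher and 951 in the lower direction. The higher count was 958 with median scaling, 700 with the block, 7892 with no scaling and 971 to 1589 without single arrays. The lower count was 557 with the filter, 163 with no scaling and 658 to 1360 without single arrays. The number of arrays and signal near background limit all values.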

Other observations

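Among red cell genes, Alas2, the erythroid enzyme that starts heme synthesis, stood apart on a single array. It was chosen here after its values were seen. Its signal was 1614, 1494 and 1780 in wild-type livers, 1653 for transgenic replicate 1, 1769 for replicate 3, and 344 for replicate 4. The quantile-normalized log2 values were 10.72 to 10.94 in wild-type livers, 10.63 for transgenic replicate 1, 10.67 for replicate 3, and 8.03 for replicate 4, where neighbouring spots deviated by -0.022. The log2 difference between groups was -1.03 ± 0.72 (SE, limma adjusted p = 0.73), and -0.16 without that array. The red cell list of 15 genes had 9 tested members, Alas2 among them, with 5 positive and 4 negative differences and a median of 0.06. The list mean, which includes Alas2, lay 0.39 below the wild-type mean on replicate 4, where wild-type arrays ran from -0.22 to 0.40. Alas2 itself read 8.03 on replicate 4 against a wild-type mean of 10.81, so the list mean there is not separate from it. The same array is the one with 1 of 4 Y-linked genes above background and the highest macrophage marker signal. Whether these go together was not tested.

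Other cell types were measured beside the iron genes. Liver endothelial markers, the source cells of Bmp6, had 2 positive and 7 negative members of 9 tested and a median log2 difference of -0.16, and neutrophil markers 4 positive and 5 negative of 9 with a median of -0.04. With no scaling both medians were positive, at 0.28 and 0.53, against 0.43 over all named genes. No member of either list passed over all probes.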
